A study of Mus musculus with 4 samples.

Results

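The genes described here are 10 genes of MHC class I antigen presentation and the immunoproteasome, read from bulk RNA sequencing of mouse J558 allografts. They were taken by symbol: the class I heavy chains H2-K1 and H2-D1, the light chain B2m, the transporter subunits Tap1 and Tap2, the loading factor Tapbp, the inducible proteasome subunits Psmb8, Psmb9 and Psmb10, and the class I transactivator Nlrc5. All 10 were found among the 24421 genes of the tables, and all 10 were among the 13669 genes tested. J558 is a mouse plasmacytoma line, and the allografts were grown from it under the skin of the right flank of female BALB/c mice aged 4 weeks. Mice received TAK-931, an inhibitor of the replication kinase CDC7, by mouth at 60 mg/kg once daily, or methylcellulose as vehicle, and tumour RNA was taken on day 6. There were 2 libraries in each group (Vehicle-1, Vehicle-2, TAK-931-1 and TAK-931-2), and both groups carried the same cell line in the same host with no other agent. The study describes Vehicle-1 and TAK-931-1 as allografts of individual mice, and the labels do not say so of Vehicle-2 and TAK-931-2, which are taken to be from other mice. If they were not, p-values measure technical spread in part.

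Class I molecules show peptides from inside the cell to CD8+ T cells. The proteasome cuts proteins into peptides, the TAP transporter moves the peptides into the endoplasmic reticulum, and tapasin helps to load them onto a heavy chain that is paired with beta-2-microglobulin. Interferon gamma is known to induce most genes of this pathway, and NLRC5 is known to activate class I promoters together with the RFX, CREB and NF-Y factors. Nearly all nucleated cells express class I genes, so a tumour library carries transcripts from J558 cells and from host leukocytes, fibroblasts and endothelium together.

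In the mm10 build, 7 of the 10 genes lie on chromosome 17 within the major histocompatibility complex. In order they are Tapbp (33919478 to 33929290, plus strand), H2-K1 (33996012 to 34000333, minus), Psmb9 (34182099 to 34187330, minus), Tap1 (34187556 to 34197225, plus), Psmb8 (34198195 to 34201454, plus), Tap2 (34204479 to 34216321, plus) and H2-D1 (35263094 to 35267497, plus). Psmb9 and Tap1 point away from each other with 225 bases between them, and Tap1 and Psmb8 are 969 bases apart. B2m lies on chromosome 2 (122147687 to 122153082, plus), and Psmb10 (105935728 to 105938392, minus) and Nlrc5 (94472763 to 94527272, plus) lie on chromosome 8. Of 1736 exon bases of H2-D1, 1060 (61.1%) also lie in exons of H2-L on the same strand, whereas the other 9 genes share no exon base with another gene. The genome used is that of C57BL/6 mice, which carry other class I alleles than BALB/c. Heavy chain genes are also close paralogs of each other, so the counts of H2-K1 and H2-D1 are uncertain in a way that those of the other 8 genes are not.

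Promoter letters were available for 8 of the 10 genes, each as a RefSeq window of 300 bases (GRCm38.p6) that runs from 250 bases before the start site into the first 50 transcribed bases. The windows below belong to the heavy chains and their light chain, to the start shared by Tap1 and Psmb9, and to Psmb10, the gene whose level differed least between groups. A set of 5 short motifs was searched on both strands, with matches in capitals: GAAANNGAAA (the core of an interferon-stimulated response element), TTCNNNGAA (the core of a gamma-activated site), TGACGC (the core of the X2 box of class I promoters), CCAAT (the NF-Y box) and GGGNNTTTCC (an NF-kB site).
H2-K1, chr17:34000284-34000583, minus strand: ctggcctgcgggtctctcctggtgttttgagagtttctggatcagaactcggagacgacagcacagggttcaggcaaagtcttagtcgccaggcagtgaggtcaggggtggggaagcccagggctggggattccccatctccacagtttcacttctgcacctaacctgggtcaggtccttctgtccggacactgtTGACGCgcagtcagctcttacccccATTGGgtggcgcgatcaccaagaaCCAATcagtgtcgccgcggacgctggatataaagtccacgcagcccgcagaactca
H2-D1, chr17:35262844-35263143, plus strand: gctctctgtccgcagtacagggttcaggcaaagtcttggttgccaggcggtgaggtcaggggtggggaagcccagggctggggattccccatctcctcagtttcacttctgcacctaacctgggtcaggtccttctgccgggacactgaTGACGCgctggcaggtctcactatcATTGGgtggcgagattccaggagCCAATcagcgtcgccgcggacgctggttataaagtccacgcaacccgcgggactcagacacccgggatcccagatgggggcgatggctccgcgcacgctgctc
B2m, chr2:122147437-122147736, plus strand: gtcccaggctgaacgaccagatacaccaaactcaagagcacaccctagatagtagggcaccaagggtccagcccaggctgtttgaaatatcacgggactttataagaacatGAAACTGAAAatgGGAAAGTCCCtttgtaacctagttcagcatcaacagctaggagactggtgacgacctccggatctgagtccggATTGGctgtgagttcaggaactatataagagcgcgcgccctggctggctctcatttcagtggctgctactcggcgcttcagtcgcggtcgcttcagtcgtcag
Tap1, chr17:34187306-34187605, plus strand: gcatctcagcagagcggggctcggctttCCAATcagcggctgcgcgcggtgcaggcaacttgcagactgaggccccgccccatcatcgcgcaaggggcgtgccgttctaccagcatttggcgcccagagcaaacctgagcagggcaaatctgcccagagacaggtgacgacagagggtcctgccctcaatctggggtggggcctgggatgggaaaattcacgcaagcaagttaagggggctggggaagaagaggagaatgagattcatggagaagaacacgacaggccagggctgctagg
Psmb10, chr8:105938343-105938642, minus strand: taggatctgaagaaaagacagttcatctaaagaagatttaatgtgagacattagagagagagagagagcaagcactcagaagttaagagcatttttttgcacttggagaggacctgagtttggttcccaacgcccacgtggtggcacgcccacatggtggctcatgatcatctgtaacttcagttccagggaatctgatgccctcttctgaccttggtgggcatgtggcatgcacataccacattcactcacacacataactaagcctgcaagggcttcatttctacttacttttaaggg
The windows are printed in the direction of transcription, and positions are counted from the start site. H2-K1 held TGACGC at -55 and H2-D1 held it at -101, the 2 matches among the 8 genes, where 7.40% of all 32851 promoter windows of this length hold it. RefSeq gives H2-K1 a second start site, from which the same match lies at -41. In both genes, the next match, a CCAAT on the other strand, began 25 bases after the first base of the X2 core, and a forward CCAAT followed. B2m held GAAANNGAAA at -139, which 3.44% of all windows hold, and GGGNNTTTCC on the other strand at -126, which 1.63% hold. CCAAT was found in 6 of the 8 genes, against 37.4% of all windows. TTCNNNGAA was found only in Psmb8 among the 8, at -97, where 8.30% of windows hold it. No 2 matches in a window overlapped. The Psmb9 window shares 275 bases with that of Tap1, so its CCAAT is the same one. None of the motifs occurred in the Psmb10 window, which says only that these letters are not there, and the other matches are likewise descriptions of letters. Sites that depart from the searched letters stay in lower case, so windows without a match, those of the heavy chains included, may still hold interferon or NF-kB sites.

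Total counts were between 16487902 and 19589339 per library. A count of 0 allows up to 3 counts, or 0.158 to 0.180 CPM (each count put on the scale of a shared library size, with TMM to allow for composition). The vehicle libraries lay closer together than the TAK-931 libraries: the biological coefficient of variation, a measure of spread between libraries, was 0.132 within vehicle and 0.571 within TAK-931. TAK-931-1 stood apart most. Its 14 leukocyte markers summed to 7317 CPM, compared with 1346.5 CPM in TAK-931-2 and with 663.9 and 588.6 CPM in the vehicle libraries. The cell type label of the samples is B lymphocyte. Of 7 mature B cell markers, Pax5 had 0 counts in every library, and the 7 summed to between 132 and 241 CPM. Cd79b was at 74.0 to 209 CPM and Ms4a1 at 13.3 to 52.7 CPM. Cd22 was at 1.42 and 1.32 CPM in the vehicle libraries, against 41.7 CPM (TAK-931-1) and 11.4 CPM (TAK-931-2). Of the 4 tested, 1 (Cd22) was above both vehicle libraries in both TAK-931 libraries and 1 (Cd79b) was below. The 9 markers of J558 and plasma cells summed to between 5981 and 17645 CPM.

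To compare class I presentation between vehicle-treated and TAK-931-treated allografts, the 10 genes were read from a test across all genes. All except Psmb10, 9 of the 10, were higher in both TAK-931 libraries than in either vehicle library. Across all genes tested 30.0% showed that order. Their fitted log2 fold changes ran from 0.73 (Psmb8) to 1.81 (Nlrc5), and that of Psmb10 was -0.12. The median over the 10 was 1.22 compared with 0.024 over all genes tested. Together the 10 genes took 0.347% and 0.320% of all counts in the vehicle libraries, 1.20% in TAK-931-1 and 0.542% in TAK-931-2.

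None of the 10 genes passed an adjusted p of 0.05 by edgeR's quasi-likelihood test, and neither did any other gene (0% of those tested). The lowest adjusted p by edgeR among the 10 was 0.275. At an unadjusted p under 0.05, 5 genes were higher (H2-K1, B2m, Tap1, Tapbp and Nlrc5) and 0 lower, where 11.6% of all genes tested were higher at that level. DESeq2 called the same 5 genes, with adjusted p from 0.0063 for Nlrc5 to 0.0411 for Tapbp, and it called 9.78% of the genes with an adjusted p as higher. Leaving out a TAK-931 library moved the size: without TAK-931-1 the median log2 fold change of the 10 was 0.59, and it was 1.70 without TAK-931-2.

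**Figure D1:**
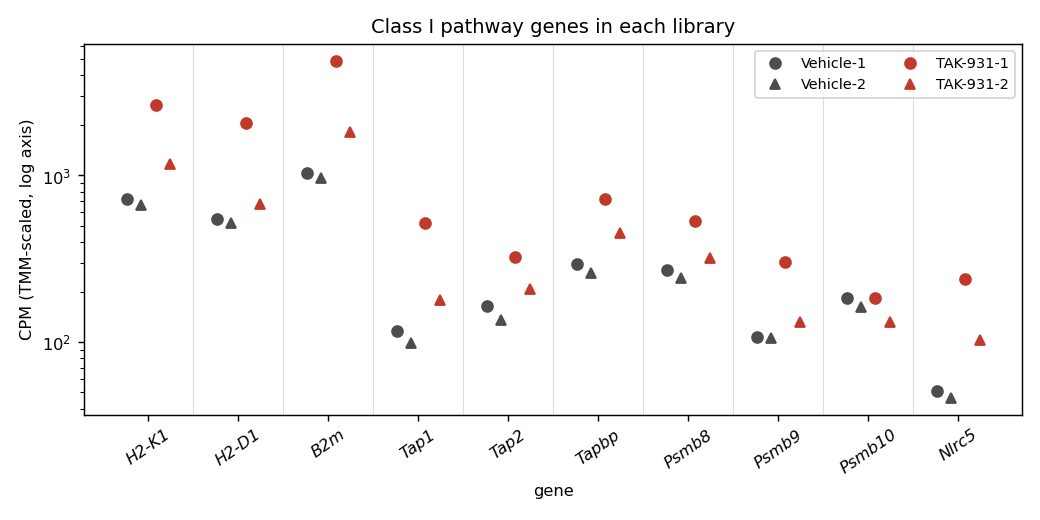
CPM of each of the 10 genes in each library on a log axis; grey marks vehicle, red marks TAK-931, circles are replicate 1 and triangles replicate 2. Both red points lie above both grey points for every gene except Psmb10, and the red circle (TAK-931-1) is the highest point of each gene, though level with Vehicle-1 for Psmb10.

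The class I molecule itself gave the highest levels. H2-K1, a classical heavy chain, was at 724.0 CPM in Vehicle-1 and 668.6 CPM in Vehicle-2, against 2650 CPM (TAK-931-1) and 1175 CPM (TAK-931-2). H2-D1, the other classical heavy chain measured, was at 549.5, 518.3, 2050 and 673.4 CPM in the same order. B2m, the light chain shared by all class I molecules, was at 1036, 967 and 4867 CPM in Vehicle-1, Vehicle-2 and TAK-931-1, and at 1833 CPM in TAK-931-2. For all 3 genes the groups did not overlap, and TAK-931-1 was the highest library. The means were 696 ± 39.2 against 1913 ± 1043 CPM for H2-K1 (SD, n = 2 per group), 534 ± 22.1 against 1362 ± 973 CPM for H2-D1, and 1001 ± 48.7 against 3350 ± 2145 CPM for B2m. The log2 fold changes were 1.46 (SE 0.46) for H2-K1, 1.35 (SE 0.59) for H2-D1 and 1.74 (SE 0.54) for B2m, with adjusted p by edgeR of 0.275, 0.293 and 0.275.

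The heavy chains did not keep the same proportion to each other in every library. In CPM per kilobase of exon, the ratio of H2-D1 to H2-K1 was 0.720, 0.735 and 0.733 in Vehicle-1, Vehicle-2 and TAK-931-1, and 0.543 in TAK-931-2. On the same scale the ratio of H2-K1 to B2m was 0.364 and 0.360 in the vehicle libraries, against 0.284 (TAK-931-1) and 0.334 (TAK-931-2). The length of H2-D1 includes the exon bases shared with H2-L, so the size of its ratio to H2-K1 is uncertain. Without TAK-931-1, the log2 fold changes were 0.75 for H2-K1, 0.33 for H2-D1 and 0.87 for B2m.

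Peptide transport and loading followed. TAP1, with TAP2, forms the pump that brings peptides into the endoplasmic reticulum. Tap1 was at 116.9 and 98.7 CPM in Vehicle-1 and Vehicle-2, against 518 CPM (TAK-931-1) and 180 CPM (TAK-931-2). Tap2 was at 165, 136, 325 and 209 CPM in the same order. Tapbp, which encodes tapasin, was at 293, 261, 726 and 455 CPM. None of these 3 genes overlapped between groups, and Tap1 was 4.81 times the vehicle mean in TAK-931-1 where Tap2 was 2.16 times. In CPM per kilobase of exon, the ratio of Tap1 to Tap2 was 0.598 and 0.614 in the vehicle libraries, against 1.35 (TAK-931-1) and 0.728 (TAK-931-2), above 1 in TAK-931-1 only. The log2 fold changes were 1.70 (SE 0.57) for Tap1, 0.83 (SE 0.32) for Tap2 and 1.09 (SE 0.32) for Tapbp, with adjusted p by edgeR of 0.275, 0.278 and 0.275. Without TAK-931-1 they were 0.74, 0.47 and 0.71.

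The inducible catalytic subunits, which change what the proteasome cuts, came to 3 genes. Psmb8 (LMP7) was at 270.2 CPM in Vehicle-1 and 242.8 CPM in Vehicle-2, against 533 CPM (TAK-931-1) and 318 CPM (TAK-931-2). Psmb9 (LMP2), which shares its upstream region with Tap1, was at 107, 105, 303 and 132.5 CPM in that order. Psmb10 (MECL-1) was at 185 CPM in Vehicle-1 and 162 CPM in Vehicle-2, against 185 CPM (TAK-931-1) and 133 CPM (TAK-931-2). The groups did not overlap for Psmb8 and Psmb9, and they overlapped for Psmb10, whose lowest library was TAK-931-2. The log2 fold changes were 0.73 (SE 0.34) for Psmb8, 1.03 (SE 0.45) for Psmb9 and -0.12 (SE 0.27) for Psmb10, with adjusted p by edgeR of 0.304, 0.296 and 0.796. Without TAK-931-1 they were 0.31, 0.31 and -0.39, and Psmb10 was at 0.073 without TAK-931-2. Psmb9 and Tap1 lie 225 bases apart, and the ratio of Psmb9 to Tap1 in CPM per kilobase of exon was 3.36 and 3.91 in the vehicle libraries, against 2.14 (TAK-931-1) and 2.69 (TAK-931-2).

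Each inducible subunit takes the place of a standard catalytic subunit of the proteasome, PSMB8 that of PSMB5, PSMB9 that of PSMB6 and PSMB10 that of PSMB7. The standard subunits lay below both vehicle libraries in both TAK-931 libraries. Psmb5 was at 273 and 283 CPM in the vehicle libraries, against 98.4 CPM (TAK-931-1) and 166 CPM (TAK-931-2). Psmb6 was at 316 and 314 CPM in the vehicle libraries, 230.0 and 245 CPM in the TAK-931 libraries. Psmb7 was at 358, 368, 190 and 276 CPM in Vehicle-1, Vehicle-2, TAK-931-1 and TAK-931-2.

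Within each library, the ratio of inducible to standard subunit hardly depends on how libraries are scaled, and it was taken in CPM. The log2 ratio of Psmb8 to Psmb5 was -0.013 in Vehicle-1 and -0.22 in Vehicle-2, against 2.44 (TAK-931-1) and 0.94 (TAK-931-2). The log2 ratio of Psmb9 to Psmb6 was -1.56 and -1.57 in the vehicle libraries, against 0.40 (TAK-931-1) and -0.89 (TAK-931-2). The log2 ratio of Psmb10 to Psmb7 was -0.95, -1.18, -0.032 and -1.05 in the same library order. The groups did not overlap for the first pair of subunits and for the second, and they overlapped for Psmb10 to Psmb7. The mean differences on the log2 scale were 1.80, 1.32 and 0.52, with p of 0.333, 0.333 and 0.667 by an exact two-sided permutation test, which cannot go below 0.333 with 2 libraries against 2. Per kilobase of exon, Psmb8 was at 0.706 and 0.610 of Psmb5 in the vehicle libraries, against 3.86 (TAK-931-1) and 1.36 (TAK-931-2). Without TAK-931-1 the differences were 1.05, 0.68 and 0.015, and without TAK-931-2 they were 2.56, 1.96 and 1.03.

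**Figure D2:**
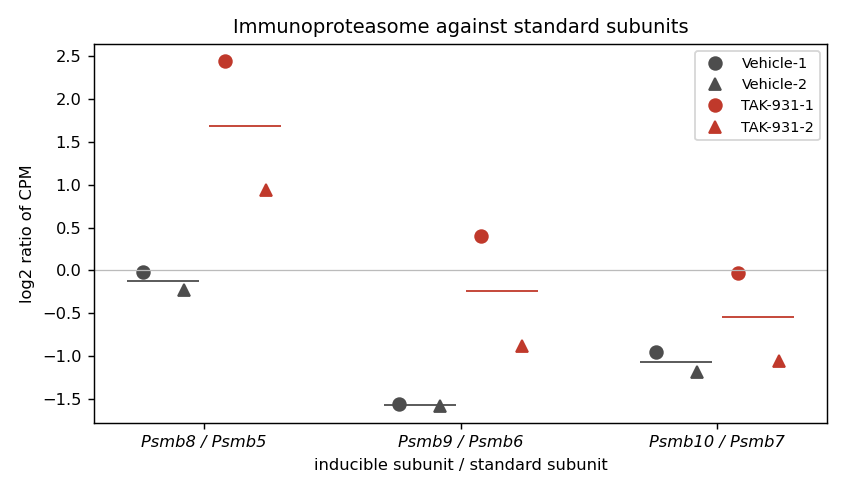
Log2 ratio of the CPM of each inducible subunit to that of the standard subunit it replaces, in each library; symbols are single libraries and horizontal lines are group means (n = 2). For Psmb8 and Psmb9 both TAK-931 libraries lie above both vehicle libraries, and for Psmb10 TAK-931-2 lies between the vehicle libraries.

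Nlrc5 encodes a transactivator of class I genes. It was at 51.3 CPM in Vehicle-1 and 46.5 CPM in Vehicle-2, against 240 CPM (TAK-931-1) and 103 CPM (TAK-931-2). The groups did not overlap, and Nlrc5 had the largest ratio to the vehicle mean of the 10 genes in each TAK-931 library, 4.90 times in TAK-931-1 and 2.11 times in TAK-931-2. The fitted log2 change was 1.81 (SE 0.47), and edgeR gave an unadjusted p of 0.016 and an adjusted p of 0.275. Without TAK-931-1 it was 1.07.

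Among the 10 genes the ratios to vehicle were larger in TAK-931-1 than in TAK-931-2 throughout. On the log2 scale, the median of the 10 lay 1.72 above the vehicle mean for TAK-931-1 and 0.60 above it for TAK-931-2. In TAK-931-1, Nlrc5, B2m and Tap1 were between 4.81 and 4.90 times the vehicle mean, H2-D1 and H2-K1 were at 3.84 and 3.81 times, and the other genes were below 3 times. In TAK-931-2, H2-D1 was at 1.26 times the vehicle mean, next to Psmb9 (1.25 times) and Psmb8 (1.24 times), while H2-K1 and Tap1 were at 1.69 and 1.67 times. Psmb10 was at 1.07 times in TAK-931-1 and 0.77 times in TAK-931-2.

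**Figure D3:**
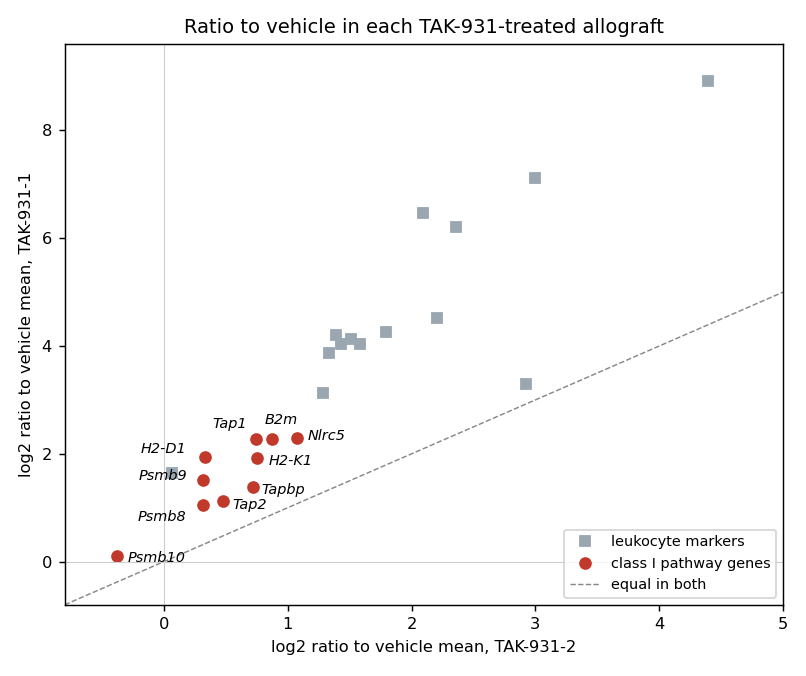
Log2 of the level over the vehicle mean, with TAK-931-2 on the x axis and TAK-931-1 on the y axis, for the 10 class I pathway genes (red circles) and 14 leukocyte markers (grey squares), with the line of equal ratios dashed. All 10 red circles lie above the line, and only Psmb10 lies left of 0.

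Levels between genes were compared per kilobase of exon. In the vehicle libraries B2m was highest, at 1207 and 1127 CPM per kilobase, followed by H2-K1 (440 and 406), H2-D1 (317 and 299) and Psmb8 (221 and 199). The place of H2-D1 is uncertain, because its length includes the 1060 of 1736 exon bases shared with H2-L. H2-L itself had 0, 0, 8 and 1 counts in Vehicle-1, Vehicle-2, TAK-931-1 and TAK-931-2. If reads in the shared bases were left uncounted, the values of H2-D1 per kilobase are too low. Psmb10 (146 and 127) and Psmb9 (133 and 131) overlapped and could not be ordered. Tapbp (107 and 95.0), Tap2 (66.3 and 54.4), Tap1 (39.6 and 33.4) and Nlrc5 (7.39 and 6.70) came below them, each without overlap with its neighbours. By group mean in TAK-931, the first 4 and the last place of this order were the same and Psmb10 came 7th. Most neighbours in that order overlapped between the TAK-931 libraries, except that B2m lay above H2-K1, Tapbp above Psmb10 and Tap2 above Nlrc5 without overlap. Within each TAK-931 library, though, B2m, H2-K1, H2-D1 and Psmb8 kept their order. They were at 5673, 1610, 1181 and 436 CPM per kilobase in TAK-931-1, and at 2136, 714, 388 and 260 in TAK-931-2. Tap1 and Tap2 could not be ordered, with Tap1 above Tap2 in TAK-931-1 and below it in TAK-931-2. The heavy chains and B2m together made up 66.0% and 67.2% of the summed CPM of the 10 genes in the vehicle libraries, 77.2% in TAK-931-1 and 70.6% in TAK-931-2.

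Related genes were read from lists of the same pathway. Of 35 other class I and class I-like heavy chains, 16 had enough counts to be tested. Of these, 10 were above both vehicle libraries in both TAK-931 libraries and 1 was below, 5 were higher at an unadjusted p under 0.05 by edgeR (H2-Q1, H2-Q10, H2-T3, H2-T10 and Cd1d1, named after their values were seen), and their median log2 fold change was 1.30. H2-T23, the gene of the nonclassical molecule Qa-1, was at 206 and 194 CPM in the vehicle libraries, against 706 CPM (TAK-931-1) and 275 CPM (TAK-931-2). H2-Q4 was at 262, 211, 738 and 261 CPM, so TAK-931-2 lay between the vehicle libraries. Fcgrt, the neonatal Fc receptor, which pairs with B2m, was at 33.6, 42.7, 350.4 and 54.9 CPM, and H2-T24 was at 70.1, 74.4, 109.9 and 81.7 CPM. H2-M3, which presents formylated peptides, was at 51.0, 63.5, 70.5 and 52.7 CPM, with overlap between groups. H2-Q7 had 1 count in TAK-931-1 and 0 counts in the other libraries. Reads of near-identical copies can be lost or moved in such families, so these values are uncertain.

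Other steps of the pathway were read in the same way. Of 13 genes of peptide trimming and loading, 3 were above and 7 below both vehicle libraries in both TAK-931 libraries (32.7% of all genes tested were below), 0 passed an unadjusted p under 0.05 by edgeR in either direction, and the median log2 fold change was -0.13. Erap1, the peptidase that trims peptides in the endoplasmic reticulum, was at 148.1 and 148.5 CPM in the vehicle libraries and at 135.4 and 135.9 CPM in the TAK-931 libraries. The chaperones of the loading complex gave log2 fold changes of 0.10 (Calr, SE 0.24), -0.017 (Canx, SE 0.26) and 0.22 (Pdia3, SE 0.24), and Hspa5, a general chaperone, gave -0.64 (SE 0.33). Of 12 standard proteasome subunits and activators, 0 were above and 10 below both vehicle libraries, 2 were lower at an unadjusted p under 0.05 by edgeR (Psmb5 and Psmb4, where 6.55% of all genes tested were lower), and the median was -0.46. Psme1 and Psme2, the subunits of the PA28 activator, which interferon gamma is also known to induce, were at 938 and 889 CPM (Psme1) and 542 and 514 CPM (Psme2) in the vehicle libraries. In TAK-931-1 and TAK-931-2 they were at 575 and 817 CPM (Psme1) and 388 and 446 CPM (Psme2), below both vehicle libraries.

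The regulators of class I genes were mixed. Of 20 tested, 9 were above and 5 below both vehicle libraries in both TAK-931 libraries, where 30.0% and 32.7% of all genes tested were. At an unadjusted p under 0.05 by edgeR, 7 were higher and 2 lower (Nfyb and Ezh2, named after their values were seen). Of all genes tested, 11.6% were higher and 6.55% lower at that level. Irf1 was at 68.1 and 53.4 CPM in the vehicle libraries, against 261 CPM (TAK-931-1) and 140.4 CPM (TAK-931-2), with a log2 fold change of 1.72 (SE 0.39). Ciita, which does for class II genes what NLRC5 does for class I, was at 7.23, 1.26, 109.9 and 39.0 CPM in the same order. Rfx5, a subunit of the factor that NLRC5 works with, overlapped between groups (46.5, 49.7, 44.4 and 78.6 CPM). Nfkb1 was at 108, 91.8, 149 and 123 CPM, and Irf8, a leukocyte transcription factor, was at 34.6, 12.3, 301 and 83.3 CPM. All 6 genes of interferon gamma and its receptor signalling were above both vehicle libraries in both TAK-931 libraries, with a median log2 fold change of 1.77, and 3 of them (Ifng, Jak1 and Socs1, the last named after its values were seen) were higher at an unadjusted p under 0.05 by edgeR. Ifng itself had 32 counts in Vehicle-1 and 2 in Vehicle-2, against 516 (TAK-931-1) and 112 (TAK-931-2). None of these genes passed an adjusted p of 0.05 by edgeR. In either direction, DESeq2 called 6 of the 20 regulators, 3 of the 6 interferon gamma genes and 2 of the 16 other heavy chains. Over all genes it called 1411 of the 12874 with an adjusted p. Without TAK-931-1 the median log2 fold change was 0.64 for the interferon gamma genes and 0.49 for the other heavy chains.

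**Figure D4:**
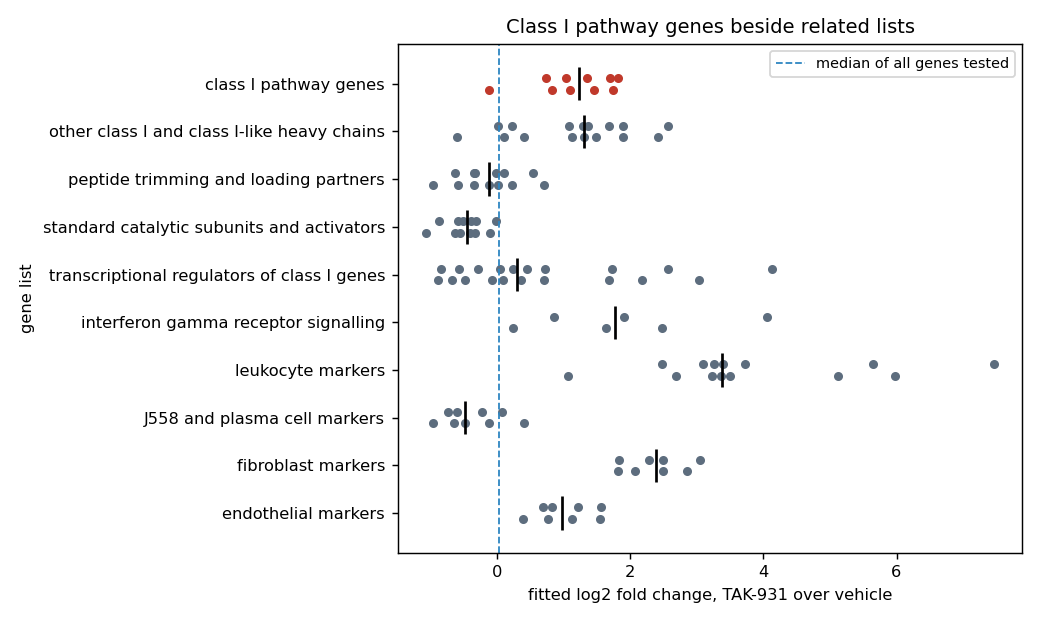
Fitted log2 fold change (TAK-931 over vehicle) of each tested gene in the class I pathway set (red) and in related gene lists and cell type markers (grey), with the median of each list as a black bar and the median of all genes tested (0.024) as a dashed line. The class I pathway genes have a median of 1.22, beside 1.30 for other heavy chains, -0.46 for standard proteasome subunits and 3.38 for leukocyte markers.

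Markers of the cell types in the tumours differed in level as well, and fewer cells of a type and less RNA per cell cannot be told apart in bulk samples. All 14 leukocyte markers were above both vehicle libraries in both TAK-931 libraries, with a sum 11.7 times the vehicle mean in TAK-931-1 and 2.15 times in TAK-931-2. Ptprc, which encodes CD45, was at 36.6 and 20.8 CPM in the vehicle libraries, against 633 CPM (TAK-931-1) and 128 CPM (TAK-931-2). Cd8a had 29, 2, 5971 and 234 counts in Vehicle-1, Vehicle-2, TAK-931-1 and TAK-931-2. The 8 fibroblast markers summed to 1884, 2141, 14810 and 5106 CPM in that order, and the 8 endothelial markers to 330, 367, 1083 and 325 CPM. The 9 markers of J558 and plasma cells summed to 14939 and 15160 CPM in the vehicle libraries, against 5981 CPM (TAK-931-1) and 17645 CPM (TAK-931-2), with 0 of 9 above and 4 below both vehicle libraries in both. The 4 were Pou2af1 and, named after their values were seen, Sdc1, Xbp1 and Mzb1, whereas Jchain, the joining chain of secreted antibodies, had 5080 and 5658 CPM in the vehicle libraries, against 3136.5 CPM (TAK-931-1) and 8124 CPM (TAK-931-2). Pou2af1, a B cell coactivator, had 5222 and 4875 CPM in the vehicle libraries, against 1181 CPM (TAK-931-1) and 3999 CPM (TAK-931-2). No marker of these 4 lists was at 0 in every library. The part of host cells in the class I values was not tested.

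The class I genes were also set, as ratios of CPM within a library, against each of the 14 leukocyte markers and each of the 9 markers of J558 and plasma cells. The ratio of B2m to Ptprc was 28.3 and 46.5 in the vehicle libraries, against 7.69 (TAK-931-1) and 14.4 (TAK-931-2). Per leukocyte marker, B2m was lower in both TAK-931 libraries than in either vehicle library for 12 of the 14, and higher in both for 1, Coro1a, named after its values were seen (225 and 230.2 CPM in the vehicle libraries, against 714 and 238 CPM in TAK-931). Over the 10 genes, between 12 and 14 of the 14 markers gave a lower ratio in both. Per J558 and plasma cell marker, the ratio in TAK-931-1 was above both vehicle libraries for all 9 markers and all 10 genes. In TAK-931-2 the answer depended on the marker: the ratio was above both vehicle libraries for 8 of 9 markers for H2-K1, B2m and Nlrc5, for 7 for Tap1 and Tapbp, for 6 for Tap2, for 5 for H2-D1, Psmb8 and Psmb9, and for 0 for Psmb10. It was below both vehicle libraries for 8 of 9 markers for Psmb10, for 4 for H2-D1, Psmb8 and Psmb9, for 1 for H2-K1, B2m, Tap1, Tap2 and Tapbp, and for 0 for Nlrc5. The ratio of B2m to Trap1a, a gene of plasmacytoma cells, was 0.919 and 0.883 in the vehicle libraries, against 13.7 (TAK-931-1) and 1.48 (TAK-931-2). Irf4 had 737 and 762 CPM in the vehicle libraries, against 298 CPM (TAK-931-1) and 1671 CPM (TAK-931-2), and in TAK-931-2 its ratio to the vehicle mean was 2.23, above that of each of the 10 genes. These ratios were not tested.

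Of 9515 genes outside all lists with a mean log2 CPM over 3, the 5 whose profile over the 4 libraries lay nearest to the median profile of the 10 genes were Ucp2, Bst2, Extl3, Ric1 and Zdhhc4, at Euclidean distances of 0.0638 to 0.0923 in log2 CPM centred on the libraries. Bst2, the interferon-inducible membrane protein tetherin, was at 110.4 and 98.8 CPM in the vehicle libraries, against 347 CPM (TAK-931-1) and 151 CPM (TAK-931-2). Ucp2, a mitochondrial carrier, was at 568, 511, 1739 and 782 CPM. Of the 10 genes themselves, H2-K1 lay nearest to the median profile (0.208) and Psmb10 farthest (1.36), with 3137 of the 9515 genes nearer than Psmb10. With 4 libraries, many genes can show a like profile.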

How the data were processed

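RNA was extracted from 4 J558 allografts and sequenced. Per the submitters' processing notes, STAR 2.6.1c, featureCounts and mm10 were used; the authors deposited 1 table per library of raw counts per gene, with no normalization, and a column of another kind, the exon length of each gene. The strand setting was not given in the sources used here, so overlapping genes are uncertain. Small counts were mostly even (17.9% to 23.9% of those from 1 to 20 were odd), so both mates of a pair appear to be counted singly, and count limits, which cover counting error only, are too low.

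Genes passing filterByExpr (minimum count 10) were tested with edgeR 4.0.16 (R 4.3.3), TMM scaling, the robust quasi-likelihood test, two-sided, treatment as the only term, and Benjamini-Hochberg adjustment over all 13669 genes at 0.05. Log2 ratios of single libraries and of subunits used CPM with a prior count of 2, and exact permutation tests used scipy 1.17.1. The test was tried on simulated counts, and the outcome is not reported here. Symbols of 23204 genes matched RefSeq GRCm38.p6, and 99.3% overlapped its position. Alternatives were other scalings, filters and thresholds, a replicate block, each library left out, DESeq2 1.42.0, limma 3.58.1 (voom) and a prior count of 0.5. The 10 genes, the lists and the tests were chosen with earlier results of these data known. Besides the 10 genes, genes were named from the 4 with the highest mean CPM in each related list, from a few pathway genes listed by symbol and from the 5 nearest profiles, except where stated. Values of 1 gene of the regulator list are not reported here.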

Additional observations from a re-analysis of the deposited data

How the results depend on the processing

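Of 110 values of the 10 log2 fold changes under 11 alternatives, 85 kept direction and side of the threshold, 24 kept direction and passed it, and 1 reversed: Psmb10 was 0.073 without TAK-931-2, in a range of -0.39 to 0.073 over the left-out libraries. All 99 values of the other 9 genes were above 0. Genes called at an adjusted p under 0.05 numbered 0 by edgeR, limma-voom, both other scalings and both other filters, 1411 by DESeq2, 144 with a replicate block and 0 to 8424 with 1 library left out (3996 without TAK-931-1, 8424 without TAK-931-2, 0 without either vehicle library). Of the 10 genes, DESeq2 called 5, the replicate block 0, and leaving out 1 library 0 to 10: 10 without TAK-931-1, with Psmb10 lower, and 9 without TAK-931-2. The replicate block called 2 of the 20 regulators and 4 of the 14 leukocyte markers. The fits with a library left out assume that a lone TAK-931 library varies like the vehicle pair. The deviations of same-numbered libraries had a correlation across genes of 0.004. With 2 libraries per group and a wider spread within TAK-931, this value cannot decide whether the numbers pair the samples. The median log2 fold change of the 10 lay between 0.59 and 1.70, and 9 genes were above both vehicle libraries under all 3 scalings. The spread within TAK-931 was 0.571 with 2 libraries, and the effect of depth was not tested.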
